A study of Mus musculus with 16 samples.

Results

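The Hox genes are homeobox transcription factors that lie in 4 genomic clusters, Hoxa, Hoxb, Hoxc and Hoxd. All genes whose symbol is Hoxa, Hoxb, Hoxc or Hoxd followed by digits were taken, and the brightest probe of a gene stood for it. This gave 36 genes with 43 probes, of 15967 genes named on the array. The 36 comprised 9 Hoxa genes, 10 Hoxb genes, 8 Hoxc genes and 9 Hoxd genes.

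Within a cluster, Hox genes are numbered from the end that is active in anterior parts of the embryo to the end that is active in posterior parts, and genes of the same number in different clusters are paralogs. Cells keep part of this positional pattern after they leave the embryo, so that cultured fibroblasts from different body sites express different combinations of Hox genes. Paralog numbers 1 to 3 are called anterior here, 4 to 8 central and 9 to 13 posterior.

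The arrays measured total RNA of mouse embryonic fibroblasts (MEFs), cells grown out of whole embryos, on 16 single-colour Illumina bead arrays with 1 array per condition. 8 arrays were labelled as MEFs transformed with RasV12 and E1A, the oncogenes of a mutant Ras and of adenovirus. 4 of these were labelled Smad1-/- (titled cre) and 4 Smad1f/f (titled pbabe), where Smad1 encodes a transducer of BMP signals and f/f marks a floxed allele that Cre recombinase can delete. In each genotype the labels gave BMP2 and ADR for 12 h, BMP2 for 12 h, ADR for 12 h, and an untreated control (CTRL) at 0 h. The other 8 arrays were labelled as non-transformed primary MEFs of passage 2, with BMP2 and ADR, BMP2, ADR or CTRL, each at 16 h and at 8 h. BMP2 is a secreted bone morphogenetic protein, and ADR is taken as doxorubicin, the DNA-damaging drug that the design text names. Some titles gave 100 ng/ml BMP2 or 0.3 uM ADR, whereas the design text gave 50 ng/ml and 1 ug/ml, so the dose of each array is not settled. The labels did not say whether the transformed lines were clones or how many embryos were pooled.

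Several markers were checked against these labels. In the primary set 11.1% of all features were called with the BMP2 label and 0.429% with the ADR label (limma, adjusted p under 0.05), and in the transformed set 35.4% and 16.3%. Of 18 measured p53 targets, genes that respond to DNA damage, 9 rose and 0 fell with the BMP2 label in the primary set, and 0 were called with the ADR label, where 2 had an unadjusted p under 0.05 and 0 were called with neqc, a background correction, or with quantile normalization. In the transformed set 9 rose and 1 fell with the BMP2 label, while 6 rose and 0 fell with the ADR label. The p53 target Cdkn1a averaged a signal of 8497 on primary arrays labelled BMP2, against 4705 on those without that label. Of 18 measured BMP targets, 1 rose and 3 fell with the BMP2 label in the primary set and 5 rose and 0 fell with the ADR label, and in the transformed set 6 rose and 4 fell with the BMP2 label and 3 rose and 0 fell with the ADR label, the last near the share of all features. Id1, a direct target of BMP signalling, differed by -0.44 on the log2 scale with the BMP2 label in the primary set (adjusted p = 0.000233) and by 0.96 with the ADR label (adjusted p = 2.86e-08). Smad1 itself averaged 534 on Smad1-/- arrays and 513 on Smad1f/f arrays (difference 0.01 ± 0.10, SE, 4 arrays each; limma adjusted p = 0.985), and whether its probe lies inside the deleted part is not given in the sources used here. In the same comparison Id1 and Id3 were higher on Smad1-/- arrays, by 1.37 and 1.10 (log2; limma adjusted p = 0.00166 and 0.00176). The other BMP targets were not tallied for it. Of 15 measured fibroblast markers, 15 were detected on arrays labelled transformed and 6 on arrays labelled primary, where Col1a1, Col1a2, Col3a1, Col5a2, Thy1, Dcn, Lum, Postn and Fap were detected on no array. Their summed signal ranged from 64622 to 81910 on transformed arrays and from 16619 to 21955 on primary arrays. Vim made up most of the primary sum, at an average of 20065 with the BMP2 label and 16287 without it. The summed signal of 11 epithelial markers ranged from 843 to 2158 on transformed arrays and from 2474 to 4949 on primary arrays. Krt18 alone averaged 98.8 on transformed arrays and 2256 on primary arrays. Epcam, Cdh1, Krt8, Krt19 and Cldn7 were detected on no primary array. Of the 11, 3 were called higher and 7 lower on transformed arrays, where 48.6% of all features were called. Of the 7 lower genes, 4 were detected on any array. All group names below are therefore the names on the labels, and the part of these differences in the Hox results was not tested.

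The promoters of 3 neighbouring Hoxd genes and of Hoxa5 are shown because Hoxd10 lay on the opposite side of the set comparison from Hoxd9 and Hoxd8, and because Hoxa5 was among the largest BMP2-label differences of the transformed set. Each is the 250 bases before the RefSeq start on GRCm38.p6, read 5′ to 3′ on the strand of the gene. Capitals mark CG dinucleotides, the sites of DNA methylation.
Hoxd10, chr2:74691641-74691890, plus strand: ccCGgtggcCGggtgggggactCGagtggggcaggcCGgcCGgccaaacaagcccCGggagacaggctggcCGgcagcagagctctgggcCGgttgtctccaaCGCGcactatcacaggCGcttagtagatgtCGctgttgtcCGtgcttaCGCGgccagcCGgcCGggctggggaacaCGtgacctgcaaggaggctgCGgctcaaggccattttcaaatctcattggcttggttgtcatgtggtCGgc
Hoxd9, chr2:74697513-74697762, plus strand: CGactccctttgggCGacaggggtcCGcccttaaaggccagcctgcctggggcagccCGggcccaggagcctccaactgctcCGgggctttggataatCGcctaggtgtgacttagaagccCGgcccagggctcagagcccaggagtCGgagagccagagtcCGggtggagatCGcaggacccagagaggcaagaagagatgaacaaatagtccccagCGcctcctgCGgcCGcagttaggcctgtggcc
Hoxd8, chr2:74704365-74704614, plus strand: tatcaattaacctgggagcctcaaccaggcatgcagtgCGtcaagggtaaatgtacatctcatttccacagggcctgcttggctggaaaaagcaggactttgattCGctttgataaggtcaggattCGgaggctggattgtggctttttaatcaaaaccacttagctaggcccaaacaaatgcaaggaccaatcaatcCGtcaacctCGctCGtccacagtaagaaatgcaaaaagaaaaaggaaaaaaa
Hoxa5, chr6:52204588-52204837, minus strand: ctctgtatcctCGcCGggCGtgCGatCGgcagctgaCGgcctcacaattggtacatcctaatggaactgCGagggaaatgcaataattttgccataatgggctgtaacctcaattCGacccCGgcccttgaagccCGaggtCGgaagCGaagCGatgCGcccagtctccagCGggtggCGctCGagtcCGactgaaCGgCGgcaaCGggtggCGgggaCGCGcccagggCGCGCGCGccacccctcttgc
These windows held 20, 13, 6 and 28 CG dinucleotides in the order shown, where the median was 12 over 23 Hox promoters and 6 over all 32851 mouse promoters in the table. RefSeq promoters were matched for 21 of the 36 genes. The GC-rich SMAD motif GGCGCC, searched on both strands, was present in 5 of the 23 Hox promoters (21.7%) and in 9.59% of all promoters. Its carriers were Hoxd13, Hoxd11, Hoxd3, Hoxd1 and Hoxa10, and of these Hoxd13 was the one detected on more than 1 array. The Hox and Pbx motif TGATNNAT was in 17.4% of Hox promoters and 7.68% of all, and the homeodomain core TAATTA in 8.70% and 4.84%. The 2 Hox promoters with TAATTA were promoters of the same gene, Hoxd11, so this share counts that gene more than once. None of these 3 motifs was found in the 4 windows printed above.

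Both sets of arrays had Hox signals from the central and posterior parts of the clusters. A gene counted as detected on an array where the scanner's detection p was under 0.05. On the 8 transformed arrays 16 genes were detected on every array, 4 on some and 16 on none. On the 8 primary arrays 14 were detected on every array, 11 on some and 11 on none. Detection on all 16 arrays was shared by 13 genes, and 11 genes were detected on none of them (Hoxa2, Hoxa3, Hoxa6, Hoxb3, Hoxb8, Hoxc4, Hoxc5, Hoxc12, Hoxd1, Hoxd3 and Hoxd12).

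The anterior genes were the least detected. Of 7 measured anterior genes, 1 was detected on any transformed array and 2 on any primary array. Hoxb2, a gene of hindbrain patterning, was detected on all 16 arrays, and Hoxb1, its neighbour with a role in the same region, on 0 transformed and 4 primary arrays. Of 15 central genes, 10 were detected on any transformed array and 11 on any primary array. Of 14 posterior genes, 9 were detected on any transformed array and 12 on any primary array. A gene that is not detected has a signal that cannot be told from background, so its absence from the cells was not shown.

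**Figure D1:**
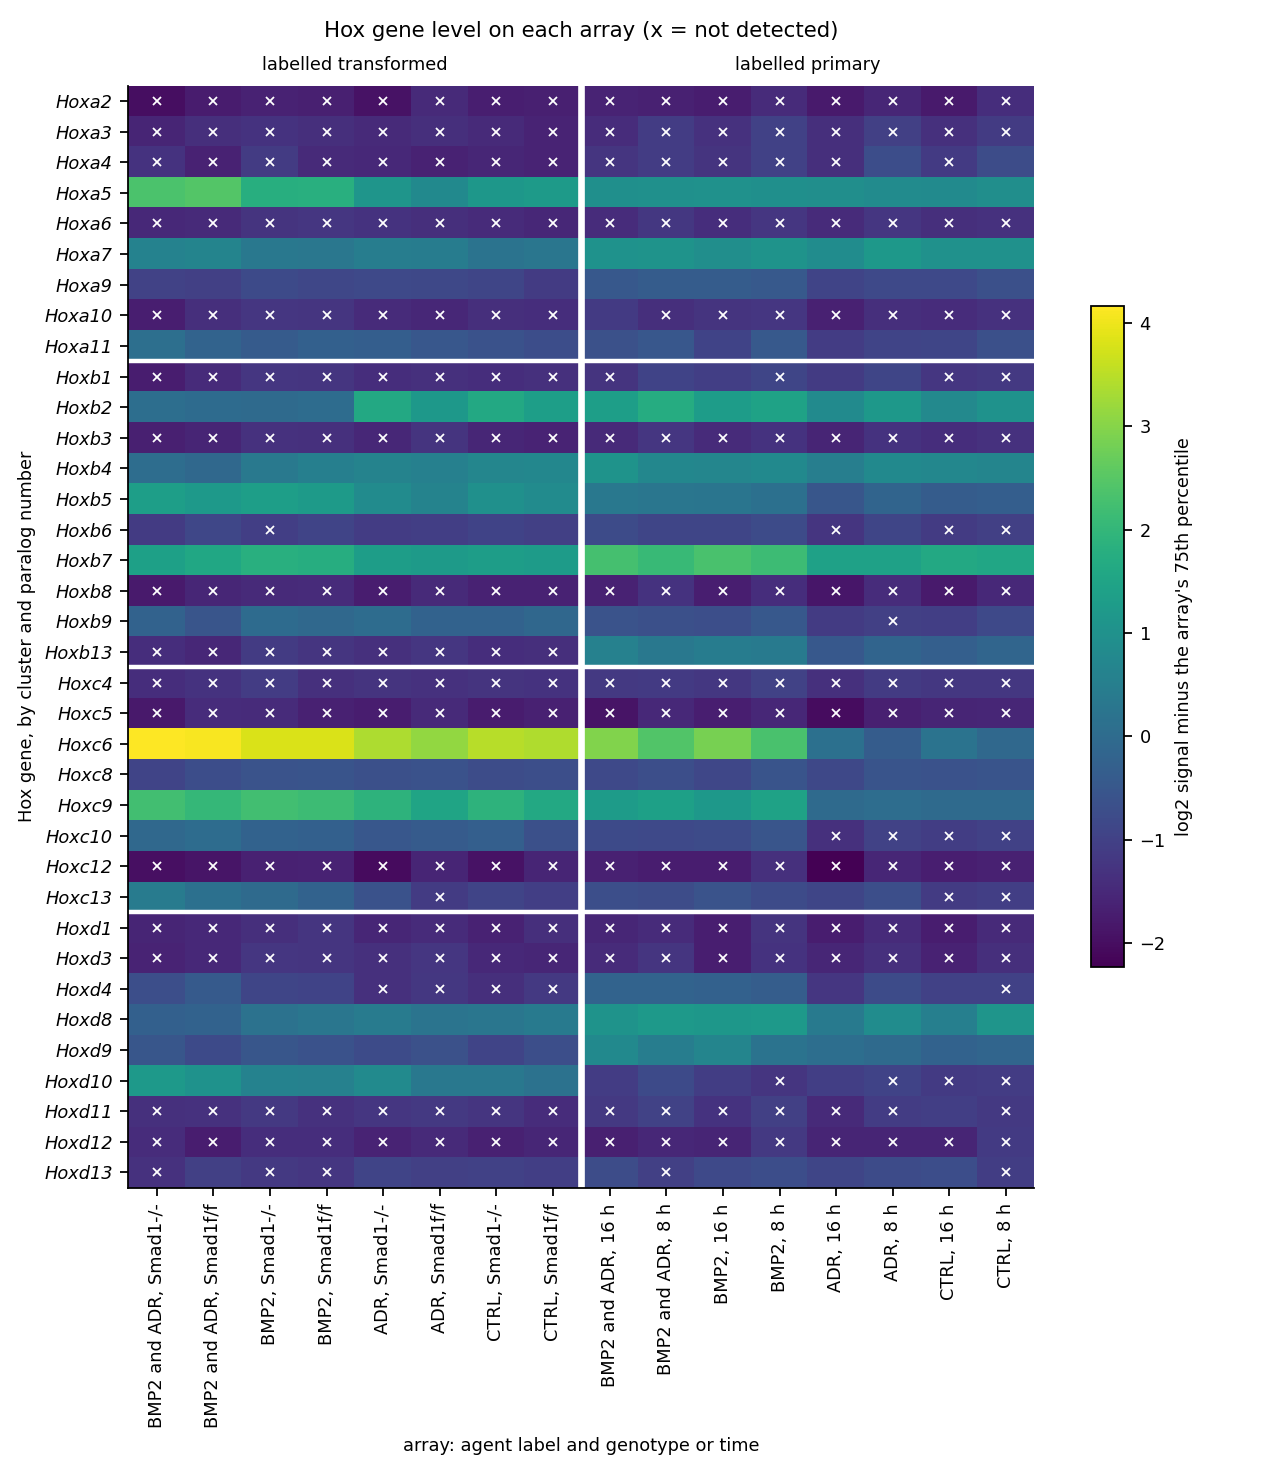
Level of each of the 36 Hox genes (rows, by cluster and paralog number) on each of the 16 arrays (columns), as log2 signal minus the array's 75th percentile, with a cross where the gene was not detected. Levels of different rows come from different probes and are not comparable. Crosses fill Hoxb13 on the 8 transformed arrays and no primary array, and the Hoxc6 row separates primary arrays with the BMP2 label from those without it.

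Levels differed between the sets in both directions along the clusters. The difference was fitted with limma over all 16 arrays, on log2 signal minus each array's 75th percentile. The fit had a mean for each genotype or time and additive BMP2 and ADR terms in each set. P-values were adjusted over 19596 features. Of 36 Hox genes 22 were called (61.1%), 9 higher and 13 lower on transformed arrays, where 48.6% of all features were called, 19.6% higher and 29% lower. Among the 25 Hox genes detected on any array 21 were called (84%), against 71.4% of detected features. This filter, here and below, used the arrays compared, so a gene can pass it through a single side. Of the called genes, Hoxa4, Hoxb1 and Hoxb13 passed it through primary arrays only, so the share is not independent of the difference. The median Hox difference was -0.07, as was the median over all features. In such bulk RNA, fewer cells of a type and less RNA per cell cannot be told apart. No replicates of a condition exist, so the error is the departure from the additive terms of the fit. It joins differences of the agent effects between genotypes or times with any BMP2 by ADR interaction, and the p-values measure only that spread. Cell line, transformation, passage and culture differ together between the sets and cannot be told apart.

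The Hoxc cluster had 4 genes higher and 0 lower on transformed arrays. Hoxc6, a central gene of the thoracic region, had signals of 1619.6 at the lowest, 2372 at the median and 3731 at the highest on the 8 transformed arrays, against 138, 534 and 1477 on the 8 primary arrays. Every transformed array lay above every primary array. The fitted difference was 2.35 ± 0.07 (log2, SE; limma adjusted p = 2.40e-16). It was 1.33 between the arrays labelled BMP2 and 3.37 between the arrays without that label. A second Hoxc6 probe, detected on 14 of 16 arrays, differed by -0.10 ± 0.05 (SE; adjusted p = 0.147), so the probes of this gene disagree and the result belongs to the brighter probe.

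Hoxc9, which patterns the thoracic region, had signals of 526.2, 782 and 977 on transformed arrays, against 172, 312 and 463 on primary arrays (lowest, median and highest of 8). The groups did not overlap. The difference was 1.29 ± 0.06 (log2, SE; limma adjusted p = 6.84e-14). Hoxc10, a gene of lumbar and hindlimb identity, was detected on 8 transformed and 4 primary arrays. Its signals were 138 to 201 on transformed arrays and 81.3 to 116 on primary arrays, but its levels overlapped. It was 0.62 ± 0.06 higher (log2, SE; limma adjusted p = 3.09e-08). Hoxc13, needed for hair and nail formation, was 0.39 higher, which joins 0.78 between the arrays labelled BMP2 and 0.01 between those without that label. Hoxc8 was detected on every array and was not called, at 110.1 to 136 on transformed arrays and 102 to 120.0 on primary arrays.

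Hoxd10 and its neighbours Hoxd9 and Hoxd8 moved in opposite directions. Hoxd10, which patterns the hindlimb, had signals of 232.5, 262 and 482 on transformed arrays, against 71.8, 88.7 and 100.0 on primary arrays (lowest, median and highest of 8). The groups did not overlap, and 4 of the 8 primary arrays had no detected signal. The difference was 1.70 ± 0.06 (log2, SE; limma adjusted p = 6.61e-15), and 2.63 after background correction with neqc. Hoxd9, a posterior gene of the limb and lower spine, had signals of 110.1, 118 and 144 on transformed arrays, against 155, 207 and 331 on primary arrays. It was lower by -0.92 ± 0.07 (log2, SE; limma adjusted p = 2.58e-10). Hoxd8, a central gene of the trunk, was at 168, 215 and 291 on transformed arrays, against 263, 385 and 417 on primary arrays, with some overlap. Its difference was -0.79 ± 0.07 (log2, SE; limma adjusted p = 1.14e-08), which joins -1.18 between the arrays labelled BMP2 and -0.40 between those without that label. Hoxd4 was lower by -0.38 and Hoxd13, a gene of digit formation, by -0.25.

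Hoxb13, the most posterior Hoxb gene, known from the tail and the prostate, was detected on every primary array and on no transformed array. Its signals were 68.1, 79.2 and 84.2 on transformed arrays, against 148.5, 189 and 281 on primary arrays (lowest, median and highest of 8). It was at least 2.27-fold lower on transformed arrays, with the dim arrays set at the lowest level of a detected probe (fitted difference -1.41 ± 0.07, log2, SE; limma adjusted p = 2.31e-13). With neqc background correction the difference was -2.34. Hoxb5, a central gene with roles in the shoulder and the enteric nervous system, lay on the other side. It had signals of 288, 413 and 529 on transformed arrays, against 139, 171 and 239 on primary arrays, without overlap. The difference was 1.11 ± 0.06 (log2, SE; limma adjusted p = 2.06e-12).

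The other Hoxb genes differed less. Hoxb9, a posterior gene of the thoracic skeleton, had signals of 134 to 209 on transformed arrays and 86.9 to 124 on primary arrays, but its levels overlapped. It was higher by 0.64 ± 0.07 (log2, SE; limma adjusted p = 4.97e-08). By contrast, Hoxb7 was lower by -0.39, Hoxb4, a regulator of blood stem cells, by -0.32, and Hoxb2 by -0.47 ± 0.06. The Hoxb4 difference was -0.61 between the arrays labelled BMP2 and -0.02 between those without that label, and that of Hoxb7 was -0.57 and -0.21. Hoxb2 signals were 170.3 to 647.5 on transformed arrays and 312.5 to 568.1 on primary arrays. The Hoxb2 value joins opposite differences, -1.43 between the arrays labelled BMP2 and 0.49 between those without that label, and with BMP2 and ADR terms shared by both sets it was no longer called (limma adjusted p = 0.154). Hoxb1 was at least 1.02-fold lower, since it was detected on no transformed array. Second probes of Hoxb7 and Hoxa9, detected on 0 and 2 of 16 arrays, differed by -0.15 and -0.13.

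In the Hoxa cluster, 2 genes were higher and 4 lower on transformed arrays. Hoxa5, which patterns the cervical and upper thoracic region and the lung, had signals of 327, 554 and 1086 on transformed arrays, against 321.5, 338 and 391 on primary arrays. The groups overlapped, and the difference was 0.66 ± 0.09 (log2, SE; limma adjusted p = 2.45e-06). It was 1.13 between the arrays labelled BMP2 and 0.20 between those without that label. Hoxa7, a trunk gene, had signals of 216, 261 and 317 on transformed arrays, against 353, 361 and 405 on primary arrays, without overlap. Its difference was -0.60 ± 0.05 (log2, SE; limma adjusted p = 7.17e-09). Hoxa11, needed for the forearm and the uterus, was 0.41 higher, and Hoxa9, a gene also known from leukaemia, was lower by -0.31 (-0.50 between the arrays labelled BMP2 and -0.11 between the others). Hoxa4 was at least 1.01-fold lower. Hoxa3 was called at -0.23 but was detected on no array, so no fold is given. Of the 22 called genes, 7 had levels that did not overlap between the sets (Hoxa7, Hoxb5, Hoxb13, Hoxc6, Hoxc9, Hoxd9 and Hoxd10). That was 31.8% of the called Hox genes, against 36.3% of all called features. Over all features, 17.7% were called without overlap.

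**Figure D2:**
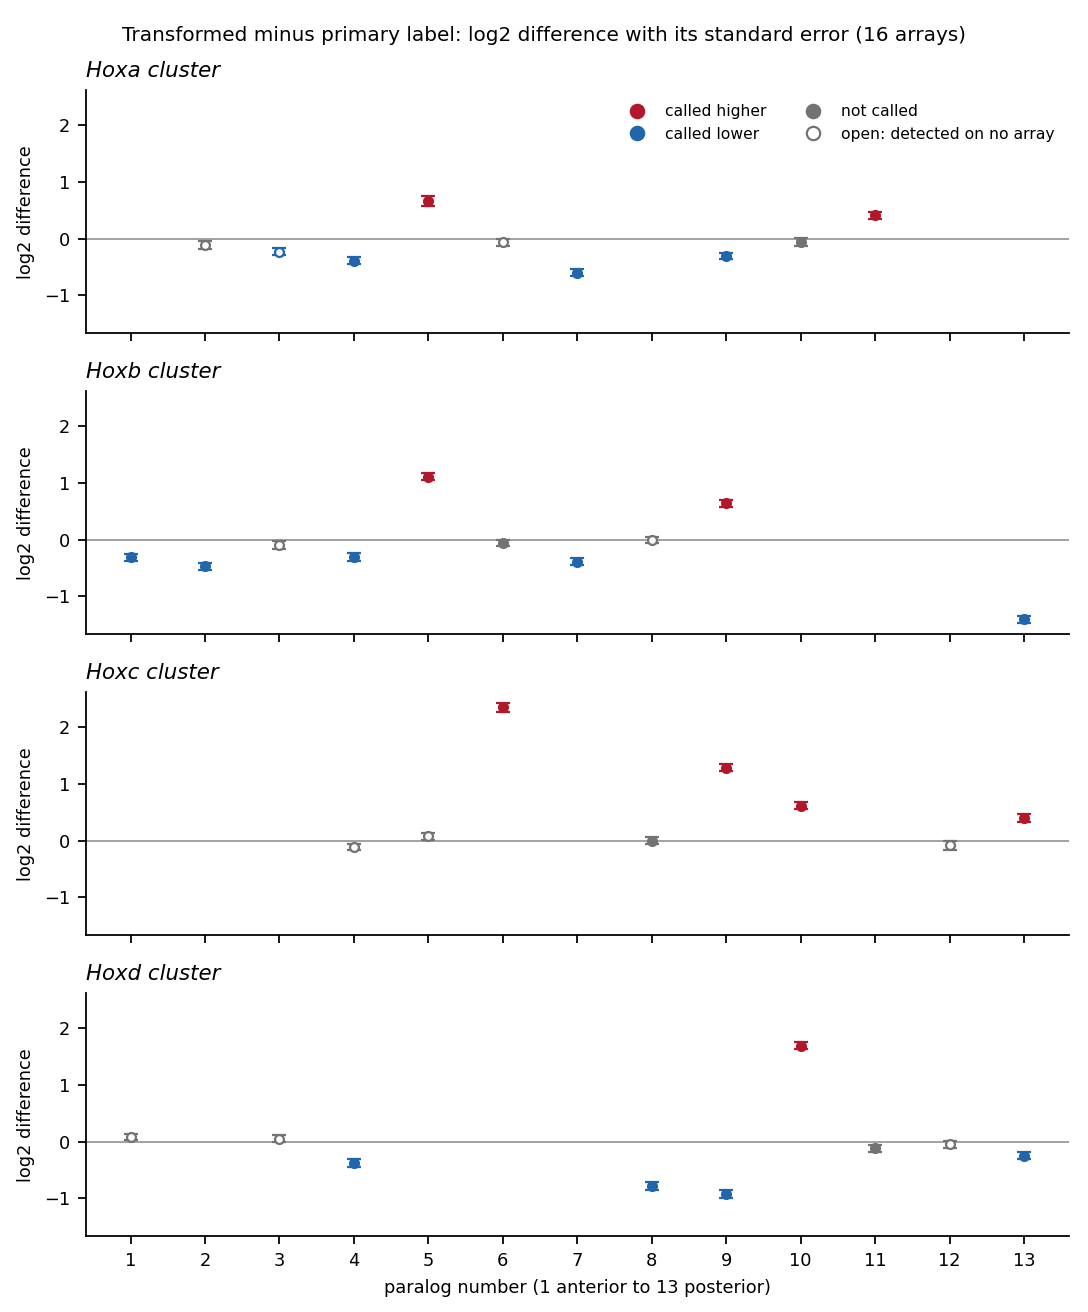
Difference between arrays labelled transformed and primary (y axis, log2, with its standard error) against paralog number (x axis) for the 36 Hox genes, in 1 panel per cluster, from 16 arrays. Called genes are red where higher and blue where lower on transformed arrays. Higher and lower genes are interspersed along Hoxa, Hoxb and Hoxd, and the called Hoxc genes are all higher.

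In the primary set the Hox genes that changed with the BMP2 label all had higher levels with it. The 4 arrays labelled BMP2 or BMP2 and ADR were compared with the 4 arrays labelled CTRL or ADR of the same times, in a limma fit on these 8 arrays. Of 36 Hox genes 15 rose and 0 fell, where 11.1% of all features were called, 5.42% higher and 5.63% lower. Among the 25 detected Hox genes the share called was 60%, against 21% of detected features. Of the called genes, Hoxc10 passed this filter through arrays labelled BMP2 only. The median Hox difference was 0.14, against 0.01 over all features, and 30 of the 36 genes lay above the median of all features. Of the 15 genes, 13 were higher in all 4 pairs of arrays that differ only in the BMP2 label, and 12 had levels that did not overlap between the groups. These were 86.7% and 80% of the called Hox genes, against 94.7% and 56.6% of all called features. Over all features, 10.5% were called with the same sign in every pair and 6.26% were called without overlap. The same arrays held the higher p53 target signals described above, and the part of that difference in the Hox values was not tested.

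Hoxc6 changed most. Its signals were 1477 and 933 on the arrays labelled BMP2 and ADR at 16 h and 8 h and 1350.1 and 844.5 on those labelled BMP2, against 224 and 138 with ADR alone and 209 and 168 on CTRL arrays. All 4 arrays with the BMP2 label lay above all 4 without it, and the arrays of 16 h lay above those of 8 h within each agent. The difference was 2.66 ± 0.07 (log2, SE; limma adjusted p = 8.91e-19), and the 4 pairs ranged from 2.39 to 2.83. The second Hoxc6 probe, detected on all 8 arrays, differed by 0.02 ± 0.07 (SE; adjusted p = 0.933).

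Hoxc9 followed the same arrays. Its signals were 457 and 460.4 with BMP2 and ADR at 16 h and 8 h and 424 and 463 with BMP2, against 201 and 185 with ADR and 179 and 172 on CTRL arrays. The groups did not overlap, and the difference was 1.33 ± 0.07 (log2, SE; limma adjusted p = 1.35e-12). Hoxc10 was detected on the 4 arrays labelled BMP2 and on none of the 4 others, and was at least 1.24-fold higher. Hoxc8, between Hoxc6 and Hoxc9 in the cluster, was detected on all 8 arrays and was not called.

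Of the Hoxb genes 6 rose. Hoxb7 had signals of 917 and 732 with BMP2 and ADR at 16 h and 8 h and 942 and 759 with BMP2, against 553 and 475 with ADR and 556 and 520.2 on CTRL arrays. Hoxb13 had 281 and 218 with BMP2 and ADR and 256 and 224 with BMP2, against 148.5 and 157 with ADR and 149 and 160.2 on CTRL arrays. Neither gene's groups overlapped, and both differences were 0.70 (log2; SE 0.07 for Hoxb7 and 0.08 for Hoxb13; limma adjusted p = 5.56e-08 and 5.82e-07). Hoxb5 rose by 0.60 ± 0.08, with 184 to 239 on arrays labelled BMP2 and 139 to 158 on the others. Hoxb2 rose by 0.50 ± 0.07, with 462 to 568.1 on arrays labelled BMP2 and 312.5 to 402 on the others. Hoxb9 and Hoxb6 rose by 0.40 and 0.24.

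In the Hoxd cluster the central genes Hoxd4 and Hoxd8 and the posterior gene Hoxd9 rose. Hoxd4, which helps pattern the hindbrain and neck, had 164 and 152 with BMP2 and ADR at 16 h and 8 h and 158 and 133 with BMP2, against 87.8 and 104 with ADR and 90.3 and 88.8 on CTRL arrays. The groups did not overlap, and the difference was 0.75 ± 0.08 (log2, SE; limma adjusted p = 2.15e-07), or 1.29 with neqc background correction. Hoxd9 had 331 and 239 with BMP2 and ADR and 301 and 195.5 with BMP2, against 218 and 176 with ADR and 155 and 159.7 on CTRL arrays. These signals overlapped, since the 16 h ADR array exceeded the 8 h BMP2 array, and the difference was 0.61 ± 0.08 (log2, SE; limma adjusted p = 6.74e-06). Hoxd8 rose by 0.44.

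The remaining calls were small. Hoxa9 rose by 0.40, Hoxa11 by 0.27 and Hoxc13 by 0.24. The calls of Hoxa11, Hoxb6 and Hoxc13 were lost when any of several single arrays was left out: for Hoxa11 the 8 h arrays labelled CTRL, BMP2 or ADR and the 16 h array with both agents, for Hoxb6 both CTRL arrays, both BMP2 arrays and the 16 h arrays with ADR or with both agents, and for Hoxc13 the 8 h CTRL array and all 4 arrays of 16 h. Without the 16 h array labelled BMP2 and ADR, Hoxb6 differed by 0.15. Hoxa9 differed by 0.17 and was not called when its 3 probes were averaged, as 2 of them were mostly undetected. The 21 genes that were not called differed by -0.16 (Hoxa4) to 0.18 (Hoxa10).

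**Figure D3:**
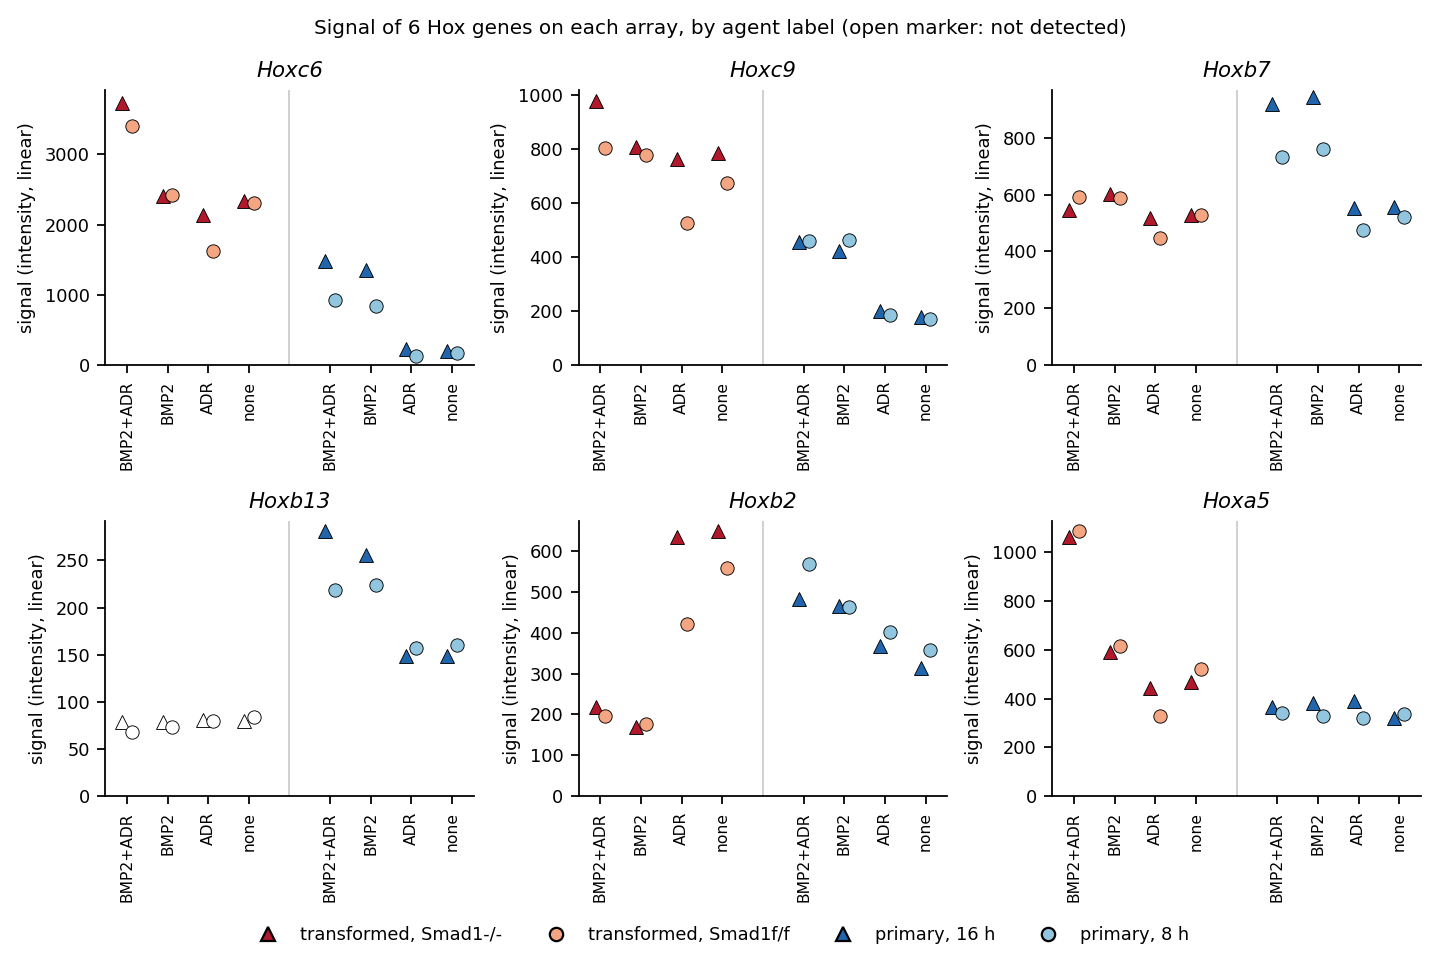
Scanner signal (y axis, linear, from 0) of 6 Hox genes on each array by agent label (x axis), with transformed arrays on the left and primary arrays on the right of each panel. Triangles are Smad1-/- or 16 h arrays, circles are Smad1f/f or 8 h arrays, and open markers were not detected. Hoxc6 and Hoxc9 separate primary arrays by BMP2 label, and Hoxb2 is lower with that label on transformed arrays and higher with it on primary arrays.

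In the transformed set the BMP2 label went with changes in both directions. The 4 arrays labelled BMP2 or BMP2 and ADR, all of 12 h, were compared with CTRL arrays of 0 h and ADR arrays of 12 h. Of 36 Hox genes 10 rose and 3 fell (36.1%), where 35.4% of all features were called, 18.7% higher and 16.7% lower. Among the 20 detected genes 65% were called, against 59.3% of detected features, so the share lay near the background. Of the called genes, Hoxd4 passed this filter through arrays labelled BMP2 only. All 13 genes moved the same way in 4 of 4 pairs, and 10 had levels that did not overlap (76.9%), against 87.3% and 69% of all called features. Over all features, 30.9% were called with the same sign in every pair and 24.5% were called without overlap. In this set 7 of 15 fibroblast markers fell and 3 rose with the BMP2 label, and their summed signal was 64622 to 68995 with it and 74488 to 81910 without it. Their part in the Hox values was not tested.

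Hoxb2 fell. Its signals were 218 and 197 with BMP2 and ADR in Smad1-/- and Smad1f/f cells and 170.3 and 178 with BMP2, against 634 and 419.7 with ADR and 647.5 and 557.5 on CTRL arrays. Every array with the BMP2 label lay below every array without it. The difference was -1.43 ± 0.08 (log2, SE; limma adjusted p = 8.31e-11). Hoxb4 fell by 0.44 on the log2 scale, with 186 to 254 on arrays labelled BMP2 and 274 to 364 on the others. Hoxd8 fell by 0.34, with signals of 168 to 212 on arrays labelled BMP2 and 217 to 291 on the others. These signals did not overlap, whereas the Hoxd8 levels used in the fit did.

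Hoxa5 and Hoxc13 rose. Hoxa5 had signals of 1061 and 1086 with BMP2 and ADR in Smad1-/- and Smad1f/f cells and 589 and 615 with BMP2, against 442.5 and 327 with ADR and 467 and 519 on CTRL arrays. The groups did not overlap, and the arrays with both agents lay above those with BMP2 alone. The difference was 1.02 ± 0.08 (log2, SE; limma adjusted p = 3.91e-09). Hoxc13 had 281 and 214.5 with BMP2 and ADR and 168 and 150.0 with BMP2, against 132 and 85.0 with ADR and 109 and 106 on CTRL arrays. Its groups did not overlap either, and the difference was 1.01 ± 0.07 (log2, SE; limma adjusted p = 2.09e-09).

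The other genes that rose did so by less than 1 log2 unit. Hoxc6 had 3731 and 3408 with BMP2 and ADR and 2406 and 2425 with BMP2, against 2139 and 1619.6 with ADR and 2338.5 and 2308 on CTRL arrays. Its difference was 0.62 ± 0.06 (log2, SE; limma adjusted p = 1.82e-07), and that of its second probe was 0.09 ± 0.07 (SE; adjusted p = 0.391). Hoxd4 was detected on the 4 arrays labelled BMP2 and on none of the other 4, and was at least 1.31-fold higher. Hoxb5 had 529 and 454 with BMP2 and ADR and 438 and 418 with BMP2, against 368 and 288 with ADR and 407 and 393 on CTRL arrays, a rise of 0.47 ± 0.07. Hoxd10 had 482 and 404 with BMP2 and ADR and 260.1 and 261.5 with BMP2, against 364 and 232.5 with ADR and 263 and 248.5 on CTRL arrays. Hoxb5 signals did not overlap between the groups, whereas those of Hoxd10 did. Hoxd10 rose by 0.44, Hoxc9 by 0.43, Hoxa11 by 0.35, Hoxb7 by 0.33 and Hoxc10 by 0.33. Hoxb7 was not called when its 2 probes were averaged, at 0.19.

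The BMP2 label was also compared at matched times. Between arrays labelled BMP2 and ADR and arrays labelled ADR, all of 12 h and 2 against 2, 9 Hox genes rose and 3 fell, where 30.6% of all features were called, 14.1% higher and 16.6% lower. These arrays also enter the comparison above, so the 2 are not independent. Hoxa5 averaged 1073 with both agents and 385 with ADR (1.45 ± 0.11, log2, SE; limma adjusted p = 6.19e-09). Hoxb2 averaged 208 with both and 527 with ADR (-1.36 ± 0.12, SE; limma adjusted p = 2.47e-08). Hoxc13 differed by 1.16, Hoxc6 by 0.89, Hoxd4 by at least 1.47-fold, Hoxd10 by 0.55, Hoxb5 by 0.54, Hoxc9 by 0.44, Hoxc10 by 0.42 and Hoxa11 by 0.36. Hoxb4 and Hoxd8 differed by -0.61 and -0.57. Without the Smad1f/f ADR array the calls of Hoxa11 and Hoxc9 were lost. Without the Smad1-/- ADR array or the Smad1f/f array with both agents that of Hoxc10 was lost, and without the Smad1-/- array with both agents that of Hoxa11.

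**Figure D4:**
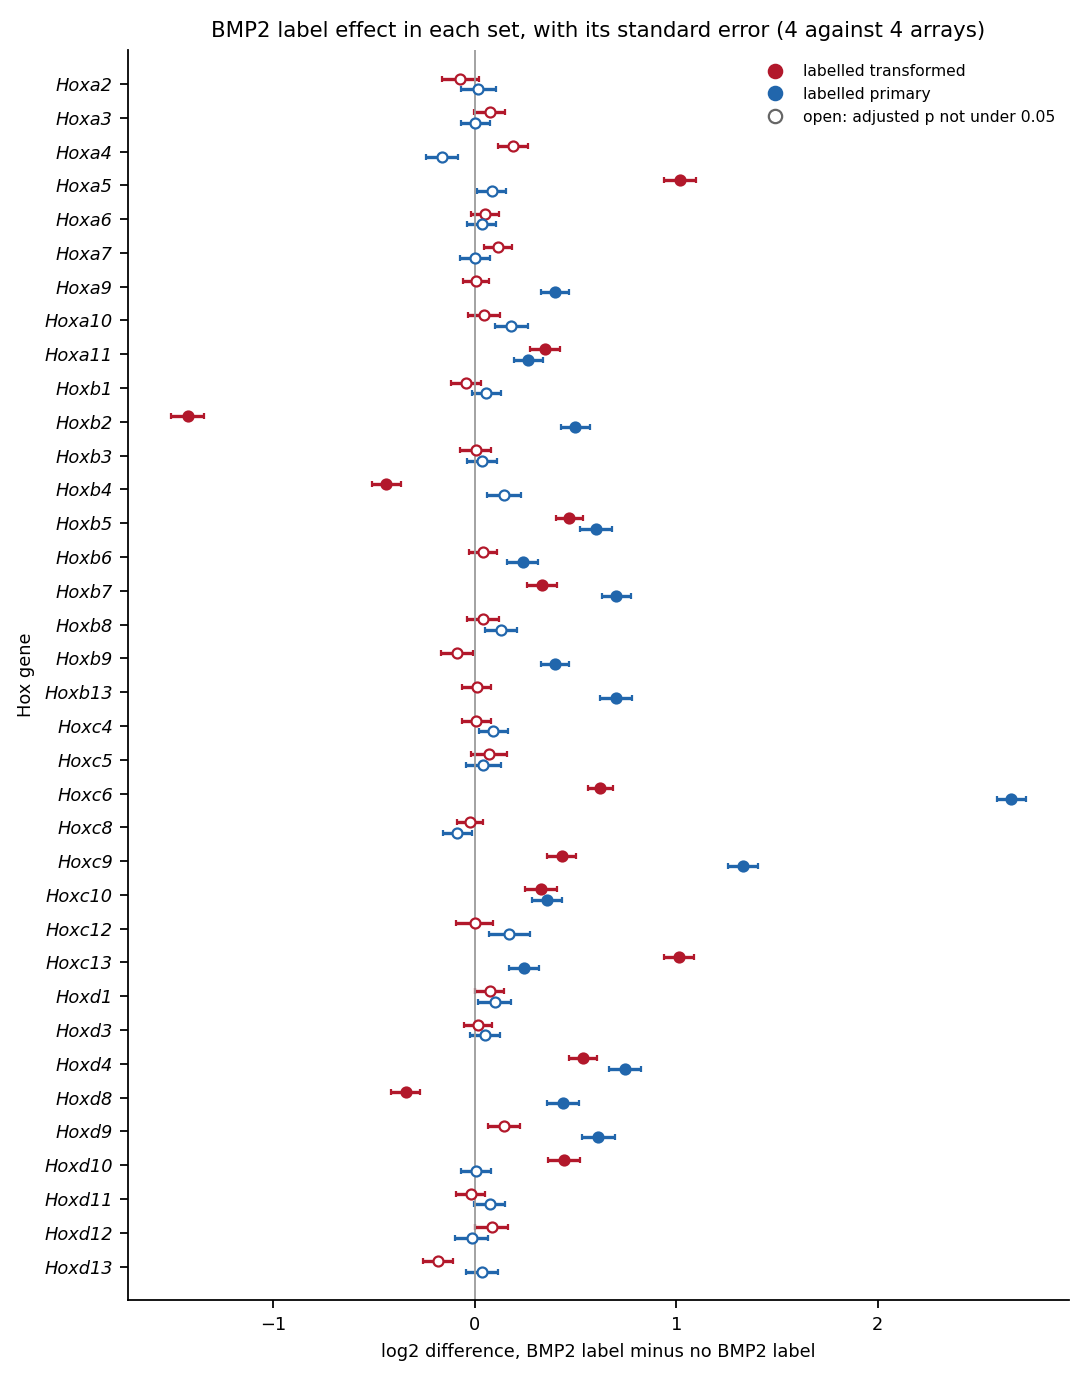
Log2 difference between arrays with and without the BMP2 label (x axis, with its standard error, 4 against 4 arrays) for each Hox gene (y axis), in red for the transformed set and in blue for the primary set. Filled points passed an adjusted p of 0.05. No filled blue point lies below 0, and Hoxb2 lies at -1.43 in the transformed set and at 0.50 in the primary set.

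The difference between the sets in the response to the BMP2 label was tested directly as an interaction in the fit of all 16 arrays. Of 36 Hox genes 14 were called (38.9%), 4 with a higher and 10 with a lower value in the transformed set, where 23.9% of all features were called, 12.5% higher and 11.4% lower. Among the 25 detected Hox genes the share was 56%, against 39.7% of detected features. Hoxc6 differed by -2.04 ± 0.15 and Hoxb2 by -1.92 ± 0.12 (log2, SE; limma adjusted p = 2.99e-09 and 7.19e-10). Hoxb2 and Hoxd8 were called in opposite directions in the sets, and their interaction values were called as well (Hoxd8 -0.78 ± 0.15; limma adjusted p = 0.000402). Hoxc9 (-0.90), Hoxb4 (-0.58), Hoxb9 (-0.49), Hoxd9 (-0.47), Hoxa9 (-0.39) and Hoxb7 (-0.37) were also lower in the transformed set. Hoxa5 (0.94), Hoxc13 (0.77) and Hoxd10 (0.44) were higher. The other called genes were Hoxb13 (-0.69) and Hoxa4 (0.35), which were detected on 0 of 8 transformed arrays. No response to the label could be measured for them there, so the value of Hoxb13 restates its rise in the primary set. Hoxa4 was detected on 2 primary arrays and its value compares signals mostly at background. The transformed arrays without the BMP2 label include those of 0 h, so time is part of this difference. For Hoxb5, Hoxd4, Hoxa11 and Hoxc10, which rose in both sets, the interaction was not called, which does not show that they responded alike. The call of Hoxa4 was lost without any of 11 single arrays, that of Hoxb7 without any of 7 and with neqc, that of Hoxd10 without the primary 8 h BMP2 array, without the primary 16 h array with both agents and with neqc, and that of Hoxd9 without the primary 16 h CTRL or 16 h BMP2 array. Those of Hoxa9 and Hoxb7 were lost when probes were averaged.

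The ADR label went with few Hox changes. In each set the 4 arrays labelled ADR or BMP2 and ADR were compared with the 4 labelled CTRL or BMP2. The CTRL arrays of the transformed set were of 0 h and its other arrays of 12 h, so time is part of that difference. In the transformed set 6 of 36 genes were called, 4 higher and 2 lower, where 16.3% of all features were called, 6.42% higher and 9.92% lower, so the share was that of the background. Hoxd10 rose by 0.43 ± 0.08, Hoxa11 by 0.27 ± 0.07, Hoxa7 by 0.27 ± 0.07 and Hoxc13 by 0.26 ± 0.07, and Hoxb4 and Hoxd8 differed by -0.30 ± 0.07 and -0.25 ± 0.07 (log2, SE, 4 against 4 arrays). Of these calls, that of Hoxd10 held when any single array was left out, and each of the other 5 was lost without at least 2 of the 8 arrays. In the primary set 0 of 36 genes were called with limma, with neqc and with quantile normalization, and 4 had an unadjusted p under 0.05. The background there was 0.429% of all features.

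Between Smad1-/- and Smad1f/f arrays of the transformed set 0 of 36 Hox genes were called with limma on the authors' values, with neqc and with quantile normalization, where 0.347% of all features were called. 7 genes had an unadjusted p under 0.05 (Hoxc13, Hoxc9, Hoxa4, Hoxd10, Hoxc12, Hoxb2 and Hoxd4), and all 36 differed by -0.24 to 0.28.

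Between 16 h and 8 h in the primary set 19 Hox genes were called, 2 higher and 17 lower, where 62% of all features were called, 6.17% higher and 55.8% lower. The median of all features was -0.20 in this comparison, against -0.02 with neqc, where 14.5% of features and 3 Hox genes were called. Of the 19, 10 were detected on no array. Hoxc6 averaged 815 at 16 h and 521 at 8 h, a difference of 0.46 ± 0.07 (log2, SE; limma adjusted p = 5.72e-05), or 0.57 with neqc (adjusted p = 0.000193). Hoxd8 (-0.32) and Hoxb2 (-0.27) were the other genes called with neqc as well.

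Genes that act with or on Hox genes were measured beside them. Of 7 measured TALE homeodomain cofactors, which bind DNA with Hox proteins, 3 were higher and 2 lower on transformed arrays, where 71.4% of all detected features and 48.6% of all features were called. Meis1 averaged 292 on transformed arrays and 136 on primary arrays, and Meis2 averaged 377 on transformed arrays and 244.5 on primary arrays. Pbx2 was lower, at 129 on transformed arrays and 164 on primary arrays. Of the 7 cofactors, 1 rose and 2 fell with the BMP2 label in the transformed set, where 35.4% of all features were called. Meis1 fell by 1.53 there, from an average of 444 without the label to 141 with it, and Pbx4 was at least 1.44-fold higher. In the primary set 0 of 7 were called with limma or with neqc, near the 11.1% of all features called. There 1 cofactor was called with quantile normalization and 1 had an unadjusted p under 0.05. Of 28 Polycomb, Trithorax and Cdx genes, regulators of Hox transcription, 3 were higher and 18 lower on transformed arrays. Of all features 48.6% were called there, 19.6% higher and 29% lower. Of the 18 lower genes, 16 were detected on any array. The list median was -0.22, against -0.07 over all features. Cbx7, a Polycomb subunit, was at least 3.30-fold lower, and Mtf2, a Polycomb-associated protein, differed by -1.48. With the BMP2 label 3 of these 28 rose and 7 fell in the transformed set, where 35.4% of all features were called, so the share was that of the background. In the primary set 2 rose and 3 fell, where 11.1% of all features were called, and Cbx7 fell by 0.66. That count of 5 became 3 without the 16 h array labelled BMP2, ADR or both agents.

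Retinoic acid is a known inducer of anterior Hox genes. Of 16 measured genes of its pathway 9 were higher and 1 lower on transformed arrays. Of all features 48.6% were called there, 19.6% higher and 29% lower. Among the higher genes was Cyp26b1, an enzyme that degrades retinoic acid, at an average of 3130 on transformed arrays and 98.5 on primary arrays. With the BMP2 label 7 rose and 0 fell in the transformed set, led by Rdh10, an enzyme of retinoic acid synthesis, at 731 with the label and 279 without it. The share of all features was 35.4%, and the count of 7 became 4 rising and 1 falling with neqc, and 4 rising with a robust trend or without the Smad1-/- array labelled BMP2 or ADR. In the primary set 1 rose and 1 fell, near the 11.1% of all features called. The count that fell was 0 when any one of the 8 h arrays was left out. Of 33 other positional transcription factors of fibroblasts 14 were higher and 7 lower on transformed arrays, against 48.6% of all features called, with the mesenchymal factors Prrx2 and Prrx1 2.86 and 2.21 higher. With the BMP2 label 3 rose and 1 fell in the primary set, near the 11.1% of all features, including En1, a limb and hindbrain factor, at 839 with the label and 333 without it. In the transformed set 8 rose and 7 fell, where 35.4% of all features were called, including Twist2, a mesenchymal factor, at 749 with the label and 1893 without it.

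Genes that lie inside or beside the clusters but are not Hox genes were set against them. Of 18 measured, 1 was higher and 11 lower on transformed arrays, with a list median of -0.17, where 19.6% of all features were higher and 29% lower. With neqc the counts were 0 and 7, and 8 of the 11 lower genes were detected on any array. With the BMP2 label 0 of 18 were called in the primary set with limma, neqc or quantile normalization, and 2 had an unadjusted p under 0.05, where 11.1% of all features were called. In the transformed set 4 rose and 5 fell, where 35.4% of all features were called.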

How the data were processed

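Total RNA of 16 MEF samples was measured on Illumina mouse bead arrays, 1 array per condition. The authors' deposited file of signals holds scanner intensity without background subtraction (GenomeStudio 2011.1, per the submitters' processing notes). Its detection column was deposited as 1 minus the detection p-value, and a probe was detected at p under 0.05. The deposited log2 table was the log2 intensity minus each array's 75th percentile and each probe's median over 16 arrays, checked to within 0.000767 on the 15 arrays with their own signals. The probe's median was added back to give levels. The deposited signals of the Smad1-/- BMP2 array repeat those of the Smad1f/f BMP2 array on 100% of probes. They were replaced by values recovered from the log2 table, 98.0% of which lay within 0.01 of a 0.1 step, and whose Spearman correlation with that array's detection was 0.992, against 0.950 for the deposited signals.

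Genes were named by GEO's platform annotation: of 24613 probes 20984 had 1 gene, 1 several and 3628 none. Arrays detected 40.1% to 46.8% of probes, with 75th percentiles of 170 to 219, and the number of arrays limits precision. Tests used limma 3.58.1 (R 4.3.3) with a variance trend and no detection filter, on 19596 features, adjusted by Benjamini-Hochberg with a threshold of 0.05. Fits within a set had 3 residual degrees of freedom and the fit of 16 arrays had 8. Data were simulated for each comparison as independent noise around a flat mean per feature, with 200 of 19596 features changed. In these, 65.7% (BMP2 label by set) to 100% of genes changed by 0.5 log2 were recovered. Of the calls, 2.91% (BMP2 label, primary set) to 9.91% (ADR label, transformed set) were false, with 9.50% for the set comparison. Departures from the additive terms were not simulated, and most real comparisons called many more features. These rates therefore need not hold for the real calls.

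The members and gene lists were chosen with earlier results of these data known. Every Hox gene with a probe was counted. Full values are given for up to 12 called genes of the set comparison and up to 8 per BMP2-label comparison, the largest first, and up to 3 called genes per list. Alternatives were neqc (offset 16), quantile normalization, detection filters, averaged probes, a robust trend, a joint fit or shared agent terms, and leaving out each array.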

Additional observations from a re-analysis of the deposited data

Results flagged for a closer look

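1 of 60 groups of 4 arrays had a Hox value far from its other 3. Hoxc10 on the primary array labelled BMP2 at 8 h had a signal of 115.6 and a level of -0.55 (log2 signal minus the array's 75th percentile), where the other 3 arrays labelled BMP2 in that set lay at levels of -0.78 to -0.82. Chance gives about 5% of groups.

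The BMP2-label difference of 14 Hox genes differed between the transformed and the primary set by the interaction test. The transformed value exceeded the primary value for Hoxa5 (0.94), Hoxc13 (0.77) and Hoxd10 (0.44, log2). It was lower for Hoxa9 (-0.39), Hoxb2 (-1.92), Hoxb4 (-0.58), Hoxb7 (-0.37), Hoxb9 (-0.49), Hoxc6 (-2.04), Hoxc9 (-0.90), Hoxd8 (-0.78) and Hoxd9 (-0.47). The remaining values, of Hoxb13 (-0.69) and Hoxa4 (0.35), rest on a set where neither gene was detected on any of the 8 transformed arrays, so no response there was measured.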

How the results depend on the processing

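Every sample is labelled replicate 1, so no replicate number could serve as a block. Arrays that share a genotype or a time were instead matched in each fit by a term for it. The count of called Hox genes stayed within 1.5 times its main value under each alternative for the BMP2 label in both sets and for BMP2 added to ADR, and stayed at 0 for the ADR label in the primary set and for genotype. Restricting tests to probes detected on every array removed Hox genes from the test and left 12 calls in the set comparison and 9 for the BMP2 label by set. Leaving out 1 array gave 22 to 24 calls for the sets, 13 to 15 for the BMP2 label in the transformed set, 10 to 13 for BMP2 added to ADR, 12 to 16 for the BMP2 label in the primary set, 11 to 14 for the BMP2 label by set and 3 to 6 for the ADR label in the transformed set, with 3 without the Smad1-/- CTRL, either BMP2 array or the Smad1-/- array with both agents. For 16 h against 8 h, 19 calls became 3 with neqc, 3 with quantile normalization, 7 with detection on 2 arrays, 5 with detection on every array, and 6 to 17 when 1 array was left out (6 without either BMP2 array, 11 without either ADR array). There neqc and quantile normalization turned the sign of Hoxa2 (0.017 and 0.026), Hoxa6 (0.053 and 0.049), Hoxb3 (0.026 and 0.030), Hoxc5 (0.0068 and 0.0037) and Hoxd11 (0.030 and 0.015), genes at background signal, and the cause was not tested. Without background subtraction, differences of dim genes are limited in size, and Hoxb13, Hoxd10 and Hoxd4 differed more with neqc. Of 636 counts of the other gene lists under alternatives, 588 stayed within 1.5 times.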
